A study of Homo sapiens with 11 samples.

Results

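The 44 collagen genes listed in the tables, of 25590 genes in all, were examined in 11 tumours grown from PC-3 cells, a human prostate carcinoma cell line. They were picked by symbol alone, as every gene named COL, a type number, A and a chain number. No measured value is part of that rule, but it was set with earlier results of these data known. The cells had been injected under the skin of male athymic nude mice (Crl:NU-Foxn1nu, 8 weeks old) together with matrigel, a basement membrane extract. From day 7 the mice received either PBS (5 tumours, T123 to T127) or A2M*, the transformed form of the proteinase inhibitor A2M, at 5.6 mg per injection into the peritoneum (6 tumours, T112 and T128 to T132; called A2M tumours here). All 11 tumours came from the same cell line, and nude mice lack mature T cells but have fibroblasts, vessels and macrophages of their own. The authors kept only reads that a sorting step had assigned to human, so a collagen read counted here should come from a PC-3 cell unless a mouse read was assigned to human. Reads assigned to mouse were not analysed here, and the share of mouse reads that entered the human counts was not tested.

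Collagens are triple helices built from 3 chains, and each gene encodes 1 chain. Fibrillar collagens (types I, II, III, V and XI among them) form the fibres of connective tissue and are made in large amounts by fibroblasts. Type I collagen normally joins α1 chains from COL1A1 with an α2 chain from COL1A2, and fibroblasts transcribe both genes together. Type IV collagens form the sheet of basement membranes under epithelium and around vessels, type VI forms beaded filaments, and type VII forms the fibrils that anchor epithelium to its matrix. Carcinoma cells can make basement membrane and other matrix chains themselves.

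Each tumour was sequenced as 1 library, with between 16958533 and 35874381 counts on genes (median 29852734), and a gene was taken as detected from 3 counts upwards, or 0.0836 to 0.177 RPM (counts per 1000000 counts), a limit that covers counting error only. Collagen genes took between 0.754% and 1.25% of all counts of a tumour. The epithelial genes KRT8, KRT18, EPCAM and CDH1 were high in every tumour, with a summed level of 655.4 to 912.2 RPKM (RPM per kilobase of exon, the scale used below for levels). The luminal prostate gene KLK3, which PC-3 cells are known not to express, had 0 counts in all 11 tumours, and KLK2 had at most 1. Counts were compared between groups with the quasi-likelihood test of edgeR over all 16630 genes that passed its filter on low counts. The tumours are the replicates, and p-values describe only the spread between these tumours. In bulk RNA, fewer cells of a type and less RNA per cell cannot be told apart.

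Of the 44 collagen genes, 32 passed the filter, and the same number had at least 3 counts in every tumour. The 12 that did not pass never exceeded 11 counts in a tumour. They were COL9A1, COL10A1, COL11A1, COL14A1, COL15A1, COL19A1, COL20A1, COL22A1, COL23A1, COL25A1, COL6A5 and COL6A6, and 9 of them had 0 counts in at least 1 tumour. A few chains held most of the collagen reads: COL6A2 and COL6A1 together took 50.6% of the collagen counts, the first 5 genes 73.2% and the first 10 genes 92.7%. Per length, the order by mean over 11 tumours began with COL6A1 at 589.3 RPKM (SD 164.4) and COL6A2 at 580.2 (SD 154.9). Between these genes the order changed from tumour to tumour, with COL6A1 at 0.863 to 1.21 times COL6A2. COL4A2 followed at 159.8 RPKM (SD 33.0), then COL4A1 at 98.3 (SD 20.1) and COL1A1 at 89.0 (SD 33.5). The order of COL4A1 and COL1A1 also changed from tumour to tumour. COL7A1 (63.4), COL5A2 (60.9), COL4A5 (56.1), COL6A3 (43.4) and COL13A1 (39.2 RPKM) completed the first 10. In all, 13 collagen genes had a mean of at least 10 RPKM and 25 of at least 1 RPKM.

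**Figure D1:**
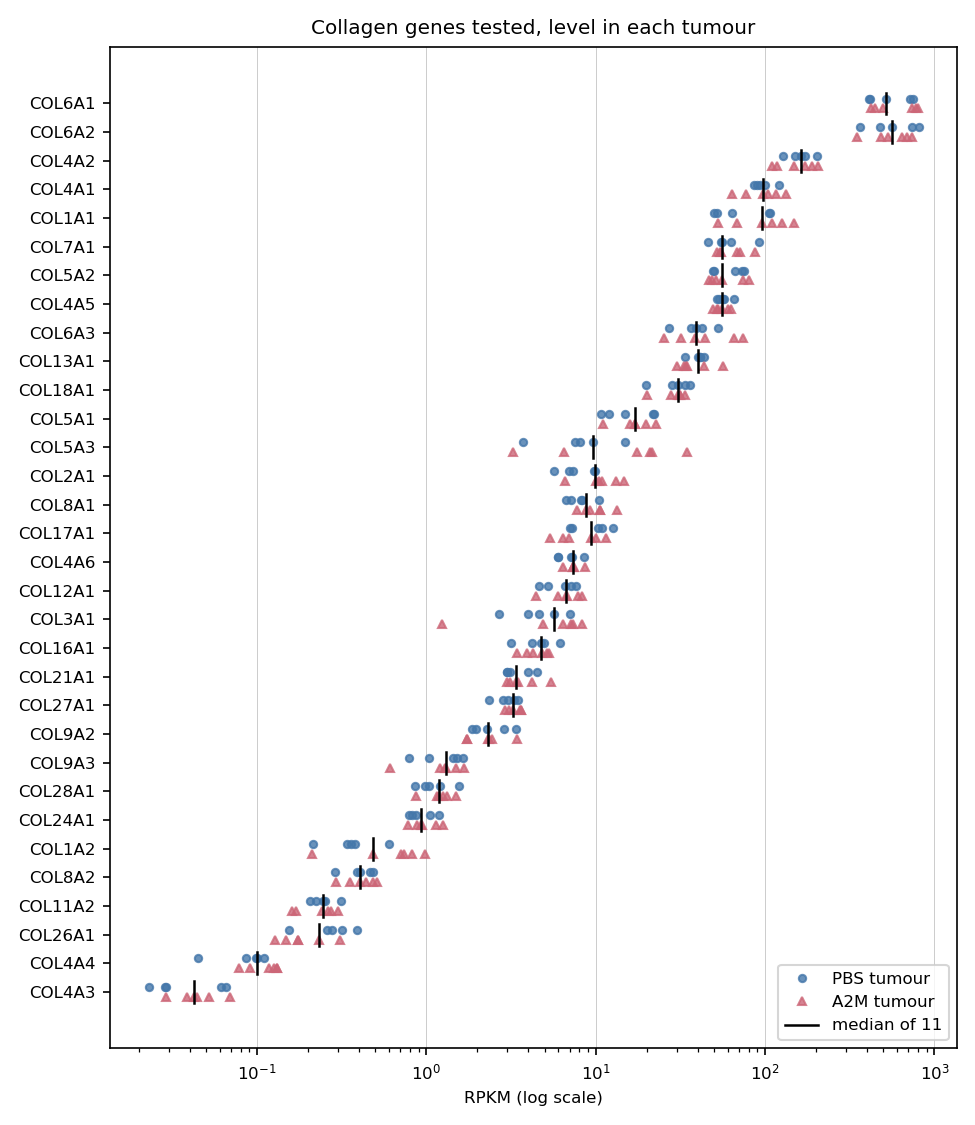
RPKM of the 32 collagen genes that passed the filter, on a log axis, with 1 point per tumour (circles for 5 PBS, triangles for 6 A2M tumours) and a line at the median of 11. Levels ran from COL6A1, with a mean of 589.3 RPKM, to COL4A3, with a mean of 0.0438 RPKM, and no gene had groups that did not overlap.

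The chains of type I collagen were far out of balance. COL1A1 (GRCh37 chr17:48261462-48278993, minus strand) was at 63.6, 105.0, 52.0, 49.7 and 106.1 RPKM in PBS tumours T123 to T127, and at 52.6, 103.4 and 148.4 RPKM (lowest, median and highest) in the A2M tumours. COL1A2 (chr7:94024207-94060539, plus strand) was at 0.340, 0.604, 0.215, 0.376 and 0.361 RPKM in the same PBS tumours, and at 0.211, 0.723 and 0.978 RPKM in the A2M tumours. A2M tumour T128 was the lowest of its group for both chains and A2M tumour T112 the highest, and the groups overlapped for both. In counts, COL1A2 had between 38 and 170 reads per tumour, so it was detected in all 11. The level of COL1A1 was between 132.2 and 294.3 times that of COL1A2, with a median of 169.7 over 11 tumours. On the log2 scale this ratio differed by -0.30 between A2M and PBS tumours (two-sided exact permutation test, p = 0.227; 0.455 after Benjamini-Hochberg adjustment over 6 ratios of chains).

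COL3A1, which encodes the only chain of type III collagen and is made alongside type I by fibroblasts, lay between them. This gene (chr2:189839099-189877472, plus strand) was at 5.67, 7.01, 2.68, 3.97 and 4.61 RPKM in PBS tumours T123 to T127, and at 1.23, 6.78 and 8.24 RPKM in the A2M tumours. The lowest value was again A2M tumour T128, with the other A2M tumours within 4.90 to 8.24 RPKM. COL1A1 stood at 11.2 to 42.8 times COL3A1, with a median of 15.0, and the highest ratio was that of A2M tumour T128. That ratio did not pass the test between groups (log2 difference 0.26, exact permutation p = 0.519, adjusted 0.623 over 6 ratios).

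Genes that mark host cell types were read beside these chains, to show how much signal of such cells the human-assigned reads held. Of 13 fibroblast and pericyte markers, DCN, a proteoglycan that binds collagen fibrils, had 0 to 3 counts per tumour, LUM 2 to 5, POSTN and SFRP2 0 to 2 each and OGN 0 to 7. Per length, these 5 markers reached at most 0.0920 RPKM in any tumour, below the 0.211 RPKM of COL1A2 in its lowest tumour. The other 8 markers had at least 3 counts in every tumour, among them FAP, a surface protease, with 22 to 151 counts, PDGFRB, a growth factor receptor of pericytes, with 9 to 52, and DPT with 9 to 33. The small leucine-rich proteoglycan ASPN stood apart from the rest of the list with 892 to 2618 counts, or a mean of 22.0 RPKM, followed by ACTA2 at 2.42 and MFAP5 at 0.902 RPKM. ASPN alone made up 77.4% of the summed level of the list. The 4 macrophage genes C1QA, C1QB, C1QC and TYROBP had 0 counts in all 11 tumours, as did the muscle gene MYL1.

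**Figure D2:**
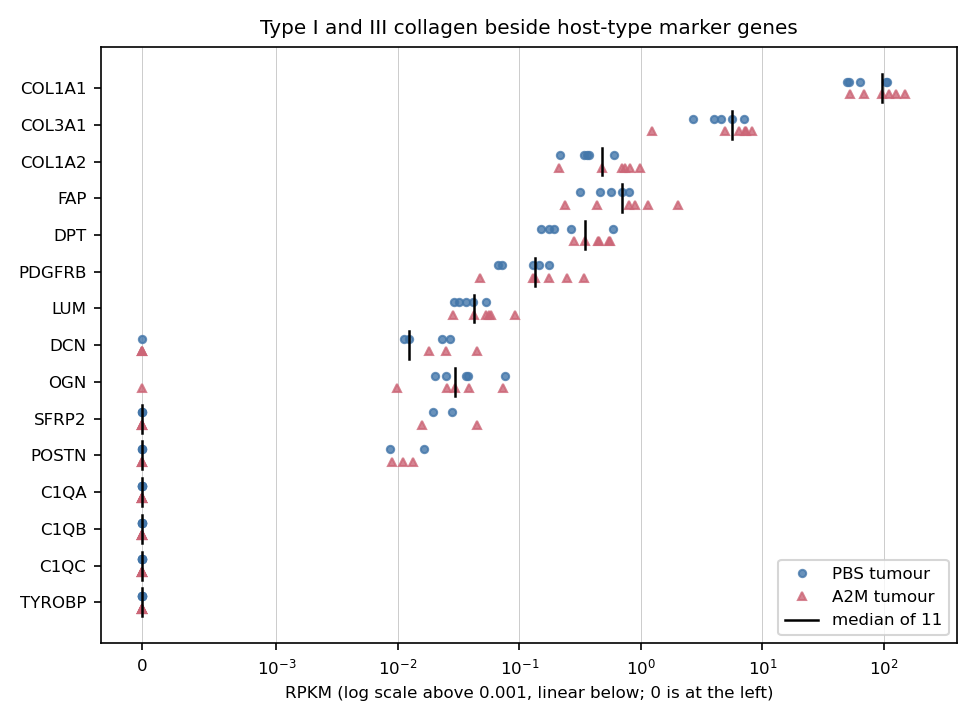
RPKM of COL1A1, COL3A1 and COL1A2 beside a choice of fibroblast and macrophage marker genes, with 1 point per tumour and a line at the median of 11. The axis is logarithmic above 0.001 and linear below. Markers with higher levels are not drawn, among them ASPN (15.8 to 38.5 RPKM), ACTA2 (1.46 to 3.11 RPKM) and CD68 (10.5 to 15.3 RPKM). Of the macrophage list only genes at 0 are drawn. COL1A1 stood between 49.7 and 148.4 RPKM, COL1A2 between 0.211 and 0.978 RPKM, in the range of FAP (0.238 to 2.01 RPKM), and the C1Q genes and TYROBP lay at 0.

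Summed over all 13 fibroblast and pericyte markers, the level was 56.9 to 73.1 CPM (counts per 1000000, scaled with TMM factors) in the PBS tumours and 52.4 to 117.2 CPM in the A2M tumours (log2 difference 0.17, two-sided exact permutation test, p = 0.407). Without ASPN, a choice made after its share was seen, the level was 12.9 to 15.7 CPM in the PBS and 12.8 to 22.8 CPM in the A2M tumours (difference 0.19, exact p = 0.203). The groups overlapped on both measures, and A2M tumour T131 was highest and A2M tumour T128 lowest on both. The 10 endothelial markers summed to 77.8 to 109.5 CPM in the PBS and 75.3 to 161.0 CPM in the A2M tumours (difference 0.083, exact p = 0.742), and ROBO4 held 65.8% of that sum. PECAM1 at 3.93 and TIE1 at 2.77 RPKM came next after ROBO4 at 17.1 RPKM, whereas CLDN5 had 0 to 5 counts. A2M tumour T112 was the highest of the endothelial sums. The 12 macrophage markers summed to 25.9 to 36.8 CPM in the PBS and 26.1 to 35.7 CPM in the A2M tumours (difference -0.048, exact p = 0.669), with CD68 at 13.1 RPKM making up 79.2% and CSF1R at 0.629 and ITGAM at 0.346 RPKM following. Among 6 skeletal muscle markers only ACTA1, at 4.54 RPKM, passed the filter, with TNNT3 and CKM at most at 5 counts. All 5 adipocyte markers passed it, led by CFD at 6.64, FABP4 at 0.693 and PLIN1 at 0.486 RPKM. The part of muscle and adipocyte markers in a collagen level was not tested.

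Which chains moved with the level of the fibroblast and pericyte markers was asked in a fit with treatment and that level as terms. With all 13 markers, 0 of 32 collagen genes had a slope at an adjusted p under 0.01 (edgeR quasi-likelihood test), where 0.00602% of all genes tested did, and 4 had an unadjusted p under 0.05, where 11.1% of all genes did. In this fit COL3A1 had a slope of 1.54 in log2 CPM per doubling of the marker level (standard error 0.611, adjusted p = 0.390), COL1A2 of 0.80 (adjusted p = 0.618) and COL1A1 of 0.42 (adjusted p = 0.761). With the level computed without ASPN, again 0 collagen genes passed an adjusted p of 0.01, where 0.0421% of all genes did. At an adjusted p of 0.05 there were 2, both rising with the markers, where 0.367% of all genes did. COL5A3 had a slope of 4.21 (standard error 0.817, edgeR adjusted p = 0.0483) and COL2A1 of 1.48 (standard error 0.262, adjusted p = 0.0327), while COL3A1 had 2.54 (adjusted p = 0.254). Both calls held together in only 3 of 11 fits that left out a tumour each. The call of COL2A1 alone held without PBS tumour T126 or A2M tumour T130 or T132. Neither call held without PBS tumour T123 or T125 or A2M tumour T128, T129 or T131. Without 1 tumour the slope ran from 3.30 to 5.39 for COL5A3 (adjusted p 0.0142 to 0.394) and from 1.29 to 1.90 for COL2A1 (adjusted p 0.0233 to 0.265). The same fit with the endothelial level gave 0 of 32 collagen genes at an adjusted p under 0.01 (0% of all genes, edgeR) and 11 at an unadjusted p under 0.05 (13.4% of all genes), with the smallest adjusted p, 0.0879, for COL6A3 at a slope of 1.43. Without A2M tumour T112, an alternative added after seeing the data, these were 0 (0% of all genes) and 12 (8.92%), and COL6A3 had a slope of 2.05 (edgeR adjusted p = 0.327). With the macrophage level, 0 collagen genes had an adjusted p under 0.01 (0% of all genes, edgeR) and 5 an unadjusted p under 0.05 (13.1%), with the smallest adjusted p, 0.233, for COL21A1 at a slope of 1.42.

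COL5A3, a minor chain of type V collagen (chr19:10070237-10121180), varied most between tumours of all collagen genes tested. It was at 9.68, 14.8, 3.74, 8.05 and 7.59 RPKM in PBS tumours T123 to T127, and at 3.27, 19.3 and 34.7 RPKM in the A2M tumours. A2M tumour T131 was highest and A2M tumour T128 lowest. These were also the tumours with the most and the fewest counts of FAP (151 and 22) and PDGFRB (52 and 9). Per length ASPN followed as well (38.5 and 15.8 RPKM), but other markers of that list did not. MFAP5 was lowest in T131 (0.734 RPKM). DPT was at 0.344 RPKM in T131 and 0.279 in T128, within 0.151 to 0.589 over all tumours. The endothelial marker TIE1 had its most counts in T131 (752) and its fewest in T128 (100). The part of these markers in the result was not tested. The standard deviation of log2 CPM over 11 tumours was 1.07 for COL5A3, 0.80 for COL3A1, 0.73 for COL1A2 and 0.56 for COL1A1, and these 4 were the collagen genes above 0.5, a spread that 5.42% of all genes tested exceeded. The median over the 32 collagen genes was 0.33, beside 0.188 over all genes.

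The other chains of type V behaved differently. COL5A1 (chr9:137533649-137736689), the chain found in nearly every type V molecule, was at 14.9, 21.9, 12.0, 10.8 and 21.8 RPKM in PBS tumours T123 to T127, and at 11.0, 17.1 and 22.7 RPKM in the A2M tumours. Its usual partner COL5A2 (chr2:189896624-190090038, minus strand, on the chromosome of COL3A1) was at 66.1, 49.7, 72.6, 75.2 and 49.4 RPKM in the PBS tumours, and at 46.6, 53.6 and 80.6 RPKM in the A2M tumours. PBS tumours T124 and T127 were the highest for COL5A1 and the lowest for COL5A2, and A2M tumour T131, highest for COL5A1 in its group, was lowest for COL5A2. The level of COL5A1 was 0.143 to 0.488 times that of COL5A2 (median 0.308), so the more abundant transcript in every tumour was COL5A2. The ratio did not pass the test between groups (log2 difference 0.19, exact permutation p = 0.654, adjusted 0.654 over 6 ratios). COL2A1, the chain of cartilage collagen (chr12:48366750-48398337), was at 9.89, 7.31, 5.66, 6.99 and 9.75 RPKM in the PBS and at 6.58, 10.6 and 14.8 RPKM in the A2M tumours, with 5 of 6 A2M tumours above the highest PBS tumour and tumour T128 below it. The remaining fibrillar chains were lower, with COL27A1 at a mean of 3.18 and COL24A1 at 0.967 RPKM. COL11A2 is listed at 0.240 RPKM, but its values rest on an exon length of 45942 nt, which is 6.24 times the 7364 nt of merged exons annotated for it in GENCODE, while that ratio lay between 0.273 and 0.978 for the other collagen genes. Its level per length is therefore not comparable with theirs.

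The type IV genes lie in pairs that start head to head, and the pairs differed widely in level. COL4A1 (chr13:110801310-110959504, minus strand) and COL4A2 (chr13:110958159-111165556, plus strand), the chains of the common basement membrane network, start close to each other on opposite strands, by the RefSeq starts used here. The bases between both starts are shown in full below because this pair held the tightest relation among the chains. They have a GC content of 80.2% and are given with the stretches before the starts of COL4A3 and COL4A5, the plus-strand members of the other pairs, which were low and intermediate in level. The sequences are from RefSeq (GRCh38.p14, plus strand), and capitals mark a GC box (GGGCGG, on the other strand CCGCCC) or a CCAAT box (CCAAT, on the other strand ATTGG).
COL4A1-COL4A2, chr13:110307158-110307283: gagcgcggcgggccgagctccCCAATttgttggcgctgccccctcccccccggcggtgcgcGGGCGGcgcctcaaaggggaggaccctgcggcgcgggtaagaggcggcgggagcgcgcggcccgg
COL4A3 upstream, chr2:227164374-227164623: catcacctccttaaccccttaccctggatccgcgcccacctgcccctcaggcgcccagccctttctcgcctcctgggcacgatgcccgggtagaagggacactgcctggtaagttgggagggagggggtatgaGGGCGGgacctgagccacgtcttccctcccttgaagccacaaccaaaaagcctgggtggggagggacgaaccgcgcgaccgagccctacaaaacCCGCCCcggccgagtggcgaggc
COL4A5 upstream, chrX:108439588-108439837: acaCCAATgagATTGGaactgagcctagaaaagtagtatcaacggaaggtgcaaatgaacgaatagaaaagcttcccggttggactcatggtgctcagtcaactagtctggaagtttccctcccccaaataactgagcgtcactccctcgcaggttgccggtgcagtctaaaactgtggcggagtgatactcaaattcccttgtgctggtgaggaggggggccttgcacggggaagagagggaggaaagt

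The stretch between COL4A1 and COL4A2 held 1 GC box and 1 CCAAT box, the stretch before COL4A3 2 GC boxes, and the stretch before COL4A5 2 CCAAT boxes. The start of COL4A4 lay 418 bases from that of COL4A3, and a start of COL4A6 379 bases from that of COL4A5, with another COL4A6 start 1415 bases away. Of the 44 collagen genes, 32 matched the promoter table, with 44 windows of 300 bases from 250 before to 50 after a start. A GC box was present on either strand in 54.5% of these windows and in 45% of all 35116 windows, a CCAAT box in 31.8% and 34.6%, and a TATA box (TATAAA) in 18.2% and 11.5%. Those not matched were COL1A1, COL1A2, COL2A1, COL3A1, COL5A2, COL6A1, COL6A5, COL8A1, COL9A3, COL14A1, COL20A1 and COL22A1.

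COL4A1 was at 93.8, 121.0, 89.5, 85.4 and 100.2 RPKM in PBS tumours T123 to T127, and at 63.8, 100.5 and 133.6 RPKM in the A2M tumours. COL4A2 was at 162.9, 202.8, 149.4, 127.8 and 172.1 RPKM in the PBS tumours, and at 109.4, 160.0 and 206.4 RPKM in the A2M tumours. Both were highest in PBS tumour T124 and A2M tumour T112 of their groups and lowest in PBS tumour T126 and A2M tumour T132, with wide overlap between the groups. COL4A1 stood at 0.565 to 0.700 times COL4A2 (median 0.599), and the log2 ratio differed by 0.052 between groups (exact permutation p = 0.429, adjusted 0.623 over 6 ratios). Exons of COL4A2 overlap those of COL4A2-AS1 on the other strand, and the strand setting of the counting is not given in the sources used here. COL4A5, which forms another network with COL4A3 and COL4A4 in kidney and with COL4A6 in epithelia, was at 56.8, 53.6, 52.0, 65.8 and 56.5 RPKM in the PBS and at 49.0, 53.9 and 63.0 RPKM in the A2M tumours. COL4A6 was at 7.13, 7.19, 5.95, 8.55 and 5.98 RPKM in the PBS and at 6.43, 7.37 and 8.68 RPKM in the A2M tumours. These are narrow ranges, with PBS tumour T126 highest of its group for both. COL4A5 stood at 6.65 to 9.45 times COL4A6 (median 7.69), and the log2 ratio differed by -0.14 between groups (exact permutation p = 0.0952, adjusted 0.455 over 6 ratios). COL4A3 and COL4A4, at mean levels of 0.0438 and 0.101 RPKM, were the lowest of all collagen genes tested.

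Type VI collagen was the most abundant collagen transcript group. COL6A1 (chr21:47401684-47424964) was at 515.5, 748.1, 414.3, 409.1 and 717.3 RPKM in PBS tumours T123 to T127, and at 422.8, 615.9 and 798.2 RPKM in the A2M tumours. COL6A2, on the same chromosome (chr21:47518026-47552762), was at 558.6, 738.5, 479.9, 365.3 and 804.8 RPKM in the PBS tumours, and at 349.4, 586.2 and 741.5 RPKM in the A2M tumours. PBS tumours T124 and T127 were high for both and PBS tumours T125 and T126 low, and the groups overlapped. Their levels were nearly equal, with COL6A1 at 0.863 to 1.21 times COL6A2 (median 0.992), and the log2 ratio differed by 0.15 between groups (exact permutation p = 0.173, adjusted 0.455 over 6 ratios). COL6A3, the long chain that completes the usual type VI molecule (chr2:238232646-238322971), was much lower at 36.3, 52.8, 27.2, 42.5 and 39.0 RPKM in the PBS tumours and at 25.2, 41.5 and 74.0 RPKM in the A2M tumours. COL6A5 and COL6A6, which can take its place, had at most 5 and 2 counts in any tumour.

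Among epithelial collagens, COL7A1, the chain of anchoring fibrils, was at 55.8, 92.0, 54.8, 45.8 and 62.6 RPKM in PBS tumours T123 to T127, and at 51.9, 61.6 and 86.9 RPKM in the A2M tumours. COL17A1, a transmembrane collagen of hemidesmosomes, was at 7.23, 12.6, 10.9, 7.01 and 10.3 RPKM in the PBS tumours, and at 5.37, 8.11 and 11.4 RPKM in the A2M tumours. For COL17A1 the lowest tumour was A2M tumour T112, which was the highest A2M tumour for COL1A1, COL4A1 and COL6A1. COL13A1, a transmembrane collagen of cell contacts, was at 43.6, 41.3, 33.5, 40.0 and 41.0 RPKM in the PBS tumours, and at 30.1, 34.4 and 56.4 RPKM in the A2M tumours, of which only tumours T112 and T128 were above the PBS median. COL26A1 was at 0.387, 0.315, 0.153, 0.279 and 0.257 RPKM in the PBS and at 0.128, 0.175 and 0.310 RPKM in the A2M tumours, a range that rests on a median of 19 counts. COL18A1, from which endostatin is cut, had a mean of 29.3 RPKM and was the only multiplexin to pass the filter. Of 10 FACIT collagens, which sit on the surface of fibrils, 5 passed the filter, from COL12A1 at 6.47 and COL16A1 at 4.56 to COL9A3 at 1.27 RPKM. Of the short-chain collagens, COL8A1 was at 9.19 and COL8A2 at 0.411 RPKM.

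**Figure D3:**
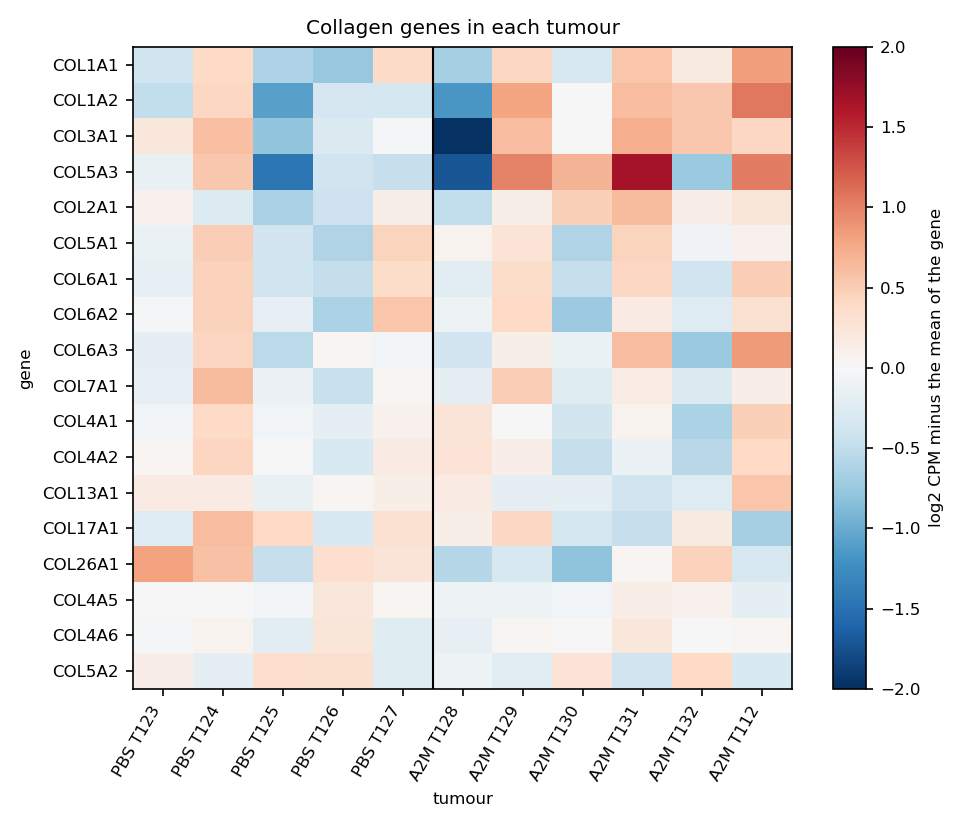
Difference of each tumour from the gene's mean over 11 tumours, in log2 CPM, for the 18 collagen genes described one by one (rows), with PBS tumours left and A2M tumours right of the line. COL5A3 and COL3A1 show the widest range, with A2M tumour T128 low and A2M tumour T131 high, and COL5A2 runs against many of the other rows.

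No collagen gene differed between A2M and PBS tumours at an adjusted p under 0.01 (0 of 32, where 0% of all genes tested did; edgeR quasi-likelihood test, smallest adjusted p 0.676). DESeq2, limma-voom, the exact test and the likelihood ratio test of edgeR gave 0 as well. At an unadjusted p under 0.05 there were 3 of 32, where 7.08% of all genes were, of which 2 were higher (3.55% of all genes) and 1 lower (3.53%) in the A2M tumours. These were COL2A1 (log2 fold change 0.42, standard error 0.182, adjusted p = 0.676), COL1A2 (0.73, standard error 0.335, adjusted p = 0.699) and COL26A1 (-0.56, standard error 0.259, adjusted p = 0.700). The fold change of COL5A3 was numerically the largest at 0.94 (standard error 0.484, adjusted p = 0.743), and that of COL1A1 was 0.37 (standard error 0.277, adjusted p = 0.844). COL5A3, COL1A2 and COL26A1 were beyond 0.5 in either direction, as were 2.32% of all genes. Both groups overlapped in all 32 collagen genes, whereas they did not overlap in 0.71% of all genes. Fold changes were above 0 for 18 and below 0 for 14 collagen genes, with a median of 0.03 beside -0.0021 over all genes. Among the 10 fibrillar chains tested 8 were above 0 and 2 below, with a median of 0.18. The summed level of the fibroblast markers differed by 0.17 and did not pass its test (exact permutation p = 0.407). The part of that level in these fold changes was not tested. The abundant chains had fold changes near 0: COL6A1 0.083 (standard error 0.222), COL6A2 -0.087 (standard error 0.222), COL4A1 -0.035 (standard error 0.171), COL4A2 -0.096 (standard error 0.175) and COL7A1 0.0034. The direction of COL6A1, COL6A2, COL4A1, COL4A2, COL5A1 and COL7A1 turned when single tumours were left out.

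**Figure D4:**
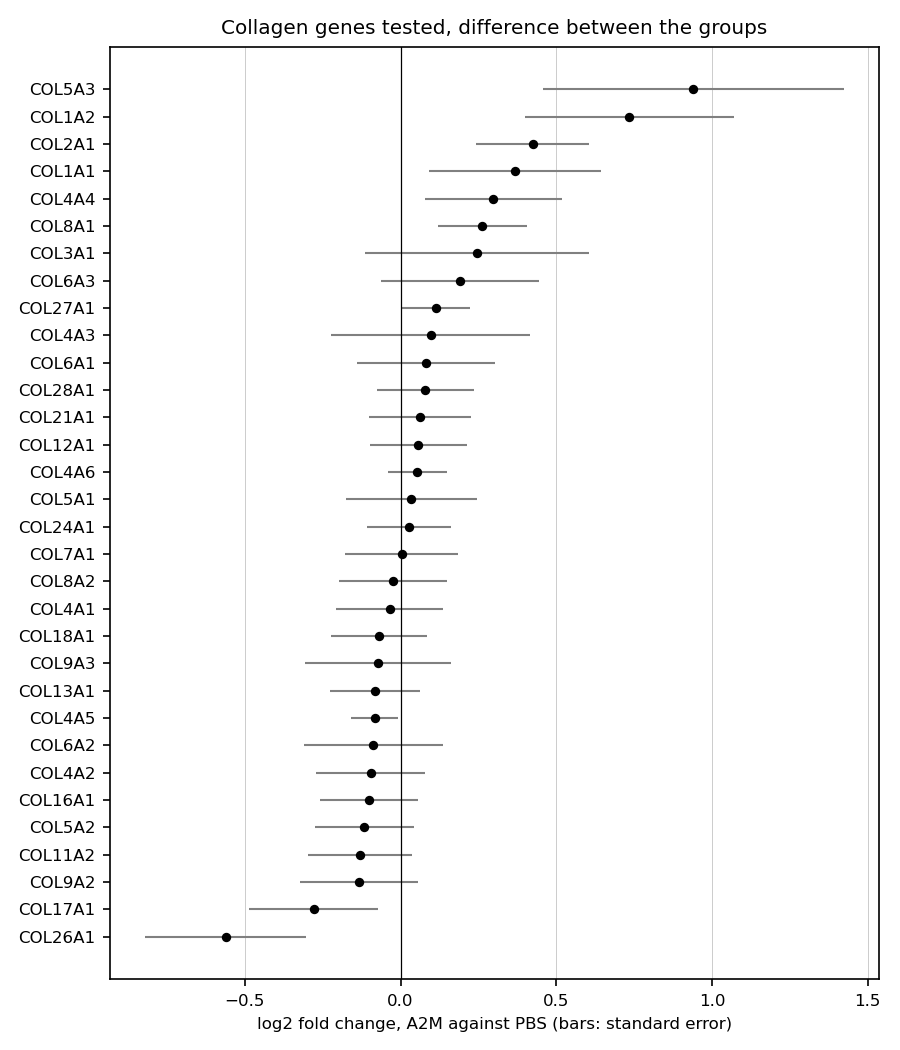
Log2 fold change of A2M against PBS tumours for the 32 collagen genes tested, ordered by size, with bars of 1 standard error (edgeR quasi-likelihood fit, 6 against 5 tumours). Values ran from -0.56 for COL26A1 to 0.94 for COL5A3, and no gene passed the adjusted threshold.

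Chains that build a molecule together did not all vary together. Over 11 tumours the Pearson correlation of log2 CPM was 0.952 for COL4A1 with COL4A2 (permutation p = 1e-05, the smallest that 100000 permutations can give; Spearman 0.927, permutation p = 0.00018) and 0.907 for COL6A1 with COL6A2 (permutation p = 1e-04; Spearman 0.845, p = 0.00167). COL1A1 and COL1A2 had a correlation of 0.850 (permutation p = 0.0017; Spearman 0.836, p = 0.00225), and COL1A1 and COL3A1 of 0.726 (permutation p = 0.00388; Spearman 0.809, p = 0.00395). The scarce α2 chain was thus higher in the tumours where the abundant α1 chain was higher. COL5A1 and COL5A2 varied against each other, with a correlation of -0.851 (permutation p = 0.00154; Spearman -0.745, p = 0.0114). COL4A5 and COL4A6 gave 0.499 (permutation p = 0.116; Spearman 0.336, p = 0.313). After Benjamini-Hochberg adjustment over these 6 pairs, p was 6e-05 and 0.0003 for the first pairs, 0.00255 for COL1A1 with COL1A2, 0.00466 for COL1A1 with COL3A1, 0.00255 for COL5A1 with COL5A2 and 0.116 for COL4A5 with COL4A6.

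The same correlations were computed within each group and without outlying tumours. Within the PBS and the A2M tumours, r was 0.959 and 0.959 for COL4A1 with COL4A2, 0.950 and 0.908 for COL6A1 with COL6A2, and -0.980 and -0.783 for COL5A1 with COL5A2. For COL1A1 it was 0.665 and 0.941 with COL1A2, and 0.680 and 0.820 with COL3A1. For COL4A5 with COL4A6 it was 0.749 and 0.555. All 6 pairs kept their sign in both groups. Without the 2 tumours farthest from the median of the first gene, r was 0.932 (permutation p = 0.00056) for COL4A1 with COL4A2, 0.894 (0.00021) for COL6A1 with COL6A2 and 0.844 (0.00524) for COL1A1 with COL1A2. It was 0.729 (permutation p = 0.0216) for COL1A1 with COL3A1, -0.826 (0.00585) for COL5A1 with COL5A2 and 0.459 (0.217) for COL4A5 with COL4A6. Both genes of a pair share each tumour's library and its scaling.

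**Figure D5:**
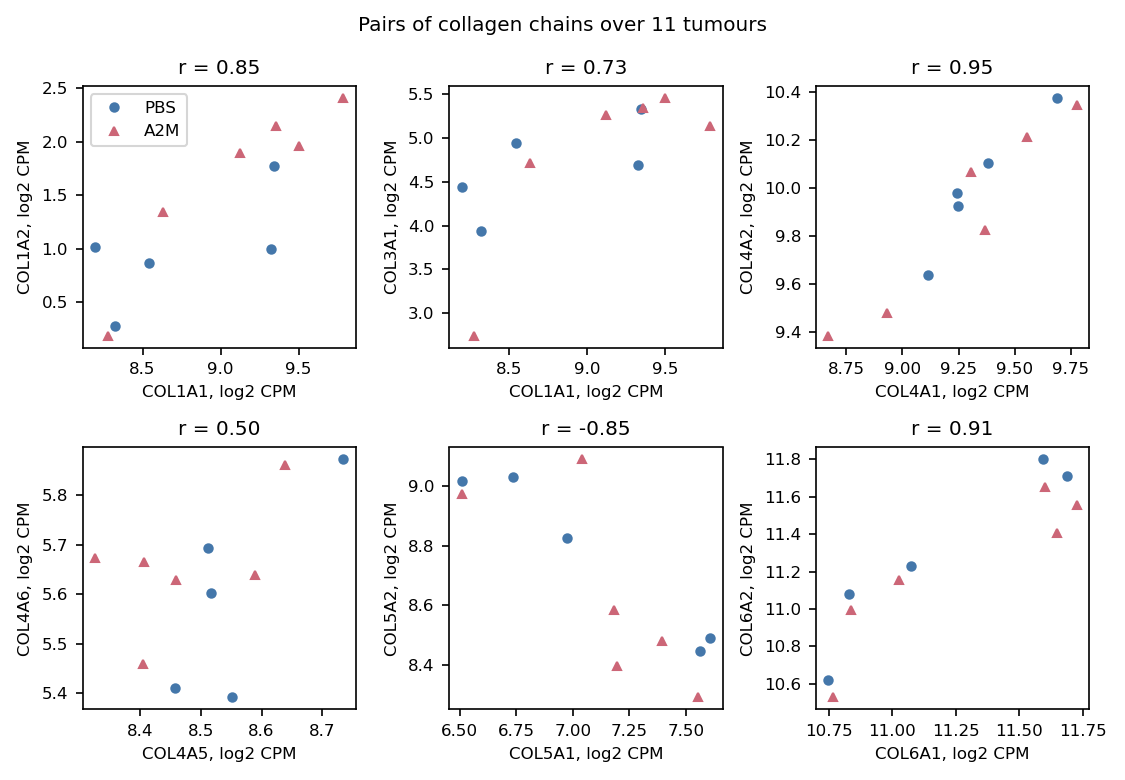
Log2 CPM of 6 pairs of collagen chains, with 1 point per tumour (circles for 5 PBS, triangles for 6 A2M tumours) and the Pearson correlation over 11 tumours above each panel. COL4A1 with COL4A2 and COL6A1 with COL6A2 rise together at 0.952 and 0.907, whereas COL5A1 with COL5A2 falls at -0.851.

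As a description over the same 11 tumours, 12 of the other 31 collagen genes had a correlation above 0.5 with COL1A1, as had 6.49% of all genes. These were COL1A2, COL2A1, COL3A1, COL5A1, COL5A3, COL6A1, COL6A2, COL6A3, COL7A1, COL8A1, COL8A2 and COL27A1, so the chains that followed COL1A1 came from several classes. Only COL5A2 was below -0.5 with COL1A1, and COL5A2 itself was below -0.5 with 12 of 31 (9.68% of all genes) and above 0.5 with COL24A1 alone (9.32% of all genes). COL6A1 was above 0.5 with 13 of 31 (9.09% of all genes) and COL4A1 with 11 (10.3%). COL3A1 was above 0.5 with 5 of 31 (4.91% of all genes), namely COL1A1, COL1A2, COL2A1, COL4A6 and COL5A3. Of all genes tested, KIF21B (0.911), PDGFRB (0.902), MRC2 (0.897), JARID2 (0.891) and ICOSLG (0.886) were most like COL1A1 across tumours, and PLEKHG4 (0.924), NDRG4 (0.907), SEMA6D (0.894), DUSP5P1 (0.889) and C11orf45 (0.889) most like COL1A2. PDGFRB is also on the fibroblast and pericyte list, and rests on 9 to 52 counts, whereas MRC2, which takes up collagen for degradation, had 464 to 1097 counts.

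All 46 genes listed for making, processing and binding collagen passed the filter: 15 modifying enzymes, 8 chaperone and export genes, 13 processing and cross-linking genes and 10 collagen receptors. The highest were P4HB, a subunit of the prolyl hydroxylase that stabilises the triple helix, at a mean of 456.2 RPKM, PPIB at 174.8, P4HA1 at 150.4, the collagen chaperone SERPINH1 at 93.7 and the lysyl hydroxylase PLOD1 at 91.3 RPKM. None differed between the groups (0 of 46 at an adjusted p under 0.01 with the edgeR quasi-likelihood test, and also 0 with DESeq2 and limma-voom). Before adjustment 5 of 46 had a p under 0.05 (7.08% of all genes), 2 of them higher (3.55%) and 3 lower (3.53%) in the A2M tumours. For COLGALT2, which glycosylates collagen, the log2 fold change was 0.62 (standard error 0.219, adjusted p = 0.640) and for SERPINH1 it was 0.30 (standard error 0.125, adjusted p = 0.673). The cross-linking enzyme LOX had -0.42 (standard error 0.146, adjusted p = 0.640), PLOD1 -0.29 (standard error 0.105, adjusted p = 0.642) and P4HB -0.19 (standard error 0.0822, adjusted p = 0.697). Over the 46 genes, 29 fold changes were above 0 and 17 below, with a median of 0.024, beside 8220 above and 8410 below over all genes.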

How the data were processed

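The deposited values were raw counts per gene, RPM and RPKM. The authors prepared TruSeq RNA v2 libraries, sorted single reads into human and mouse with xenome (RefSeq transcriptomes of hg19 and mm10), mapped the human reads to hg19 with TopHat2 and counted them with featureCounts (bcl2fastq 1.8.4 per the labels), without pooling tumours. Other versions and the strand setting are not given in the sources used here. The deposited RPM divide a count by the tumour's total, and the deposited RPKM also by exon length. Sorting decides which collagen reads count as human.

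The whole count table was tested by labelled group with edgeR 4.0.16 in R 4.3.3 (filterByExpr, TMM, quasi-likelihood, Benjamini-Hochberg, adjusted p under 0.01). The test was also run on simulated data with known changes, whose outcome is not given here. The marker fit added log2 of the summed CPM plus 0.1. Standard errors are the fold change over the square root of F. Ratios had 0.5 counts added, with exact permutation tests (smallest p 0.00216); log2 CPM had a prior count of 2. Alternatives were other scalings, filters, tests (DESeq2 1.42.0, limma-voom 3.58.1), pseudocounts and each tumour left out. Positions are from GENCODE mapped to GRCh37; all 144 list symbols matched, 5 as older symbols.

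The members, lists and tests were chosen with earlier results of these data known. Described with the value of each PBS tumour and the lowest, median and highest A2M value are the chains of the 6 pairs, the 10 with the highest mean RPKM, the 3 with the largest spread, the 3 with the smallest p in each direction and any past a threshold. Named pathway genes are the 5 highest and the 2 with the smallest p in each direction, named markers the 3 highest per list, and named beside COL1A1 and COL1A2 the 5 genes most like each. P4HB's fold change and other marker genes were named after their values were seen.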

Additional observations from a re-analysis of the deposited data

Results flagged for a closer look

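Of 58 sets of 5 or 6 tumours searched for a value far from the rest (Dixon's criterion), 4 held one, where chance gives about 2.90. In A2M tumour T128, COL1A1 stood at 248.9 times COL1A2 in RPKM, while the other A2M tumours lay between 135.1 and 169.7. In the same tumour COL1A1 stood at 42.8 times COL3A1, against 13.5 to 23.2 in the others of its group. This tumour also had the lowest RPKM of COL1A1, COL1A2, COL3A1, COL5A3 and COL2A1 among the A2M tumours and the fewest counts of FAP (22) and PDGFRB (9). Per length, ASPN (15.8 RPKM) and DPT (0.279 RPKM) were also lowest of the A2M tumours there. The markers ACTA2, RGS5, MFAP5 and PDGFRA were lowest in other A2M tumours, with ACTA2 at 1.94 RPKM in T128 and 1.46 RPKM in T112. In PBS tumour T126 the ratio of COL4A1 to COL4A2 was 0.668, against 0.576 to 0.599 in the other PBS tumours. The summed level of the endothelial markers was 161.0 CPM in A2M tumour T112 and 75.3 to 100.8 CPM in the other A2M tumours, and that tumour was also the highest of its group for COL1A1, COL4A1, COL4A2, COL6A1, COL6A3 and COL13A1. The causes were not tested.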

How the results depend on the processing

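No paired analysis was possible because the groups share no tumour numbers. Of 299 alternatives tried on the comparisons, 287 kept direction and side of the threshold, among them all for the number of collagen genes called, which was 0 in each (0 to 4 at an unadjusted p under 0.05 with a tumour left out). Over all genes, 0 were called in the main test, 1 each by the likelihood ratio test, the exact test and DESeq2, and 241 when edgeR and DESeq2 both had to give a p up to 0.01 before adjustment. The marker fit without ASPN, added after seeing the data, called 2 collagen genes at an adjusted p under 0.05. The correlation of COL4A5 with COL4A6 was 0.606 on log2(RPKM + 0.1) and 0.259 to 0.646 with single tumours left out, highest without PBS tumour T127 (0.645) or A2M tumour T112 (0.646). With single tumours left out, the log2 ratio of COL5A1 to COL5A2 ran from -0.012 to 0.39, lowest without PBS tumour T126, the endothelial level from -0.053 (without A2M tumour T112) to 0.17 and the macrophage level from -0.11 to 0.013 (without PBS tumour T124). As a mean of log2 CPM the macrophage level differed by 0.071. Of 323 alternatives on 18 collagen genes, 300 kept the direction and 23, in 6 genes, turned it. COL4A1 was at 0.0082 with library size only, and COL7A1 at -0.0020 without a filter. With single tumours left out, fold changes ran from -0.15 to 0.065 for COL4A1, -0.19 to 0.0069 for COL4A2, -0.088 to 0.18 for COL5A1, -0.018 to 0.22 for COL6A1, -0.22 to 0.051 for COL6A2 and -0.11 to 0.20 for COL7A1. The cause was not tested. Chains under 3 counts are limited by depth.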

Other observations

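Other genes of the pathway lists, chosen after their values were seen, also had clear levels. Of the 10 collagen receptor genes, the integrin chains ITGA2 and ITGA10 had means of 29.9 and 23.7 RPKM and the receptor kinase DDR1 22.9 RPKM, whereas DDR2 and ITGA11 had 0.156 and 0.0858 RPKM. The others of the list lay between, among them MRC2 at 4.33 and ITGA1 at 0.530 RPKM. Among the cross-linking enzymes, LOXL1 at 78.1 and LOXL2 at 58.9 RPKM stood above LOX at 5.68 RPKM. Of the enzymes that trim the ends of procollagen, BMP1 was highest at 46.2 RPKM. ADAMTS3 (3.69 RPKM) and ADAMTS14 (10.1 RPKM) were lower than BMP1 and higher than ADAMTS2 (0.0767 RPKM, 8 to 23 counts). ADAMTS14 ranged from 4.05 to 23.2 RPKM over the tumours, and differed by 0.66 between A2M and PBS tumours on the log2 scale (standard error 0.340, adjusted p = 0.743 from edgeR). No explanation of these levels was tested.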
